A study of Homo sapiens with 18 samples.

Results

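Ribosome biogenesis and RNA polymerase I genes were examined in HCT116 cells, an established human colorectal carcinoma line of WT genotype, as the cultures grew from sparse to overcrowded. The genes were chosen by name, as 38 symbols of the RNA polymerase I machinery, nucleolar chaperones, small nucleolar ribonucleoproteins (snoRNPs) and assembly factors of both ribosomal subunits. Values were found for 37 of the 38 among the 38055 genes of the whole transcriptome table, and BOP1 was not analysed here. The study examined how cell density affects the localization of Argonaute protein and regulation by miRNAs, and RNA levels were 1 of its readouts. Whole cell RNA was taken on day 3 (50% confluency) and on day 5 (250% confluency), with no agent added to either group and 3 libraries per day that the labels give as biological replicates. Both groups therefore differ in days of growth as well as in density, and these cannot be told apart. Day 7 whole transcriptome values were not analysed here.

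Ribosomes are built in the nucleolus. RNA polymerase I transcribes the ribosomal DNA into a long precursor RNA, snoRNPs modify and help to cleave it, and a large set of assembly factors folds and trims it into the small and the large subunit. The demand for ribosomes is closely tied to growth, and many of these genes are known targets of the transcription factor MYC, which binds the letters CACGTG (the E-box). In colorectal cancer cells this pathway is known to be highly active.

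The E-box is shown first because it is a sequence feature that many of these promoters share. Promoters of 300 bases, from 250 bases before the transcription start to 50 after it, came from RefSeq (GRCh38.p14), and 31 of the 38 genes had one. CACGTG, which reads the same on both strands and was the only motif searched, was present for 13 of the 31 genes (41.9%), against 8.77% of all 27305 genes with a promoter and 12.2% of the genes tested for a change in expression. The match began between 31 bases before and 35 bases after the start in all 13. Of the 2548 matching promoters of all genes, 22.6% have their match inside that span, which was set by the 13 genes themselves and covers 22.7% of the positions. Sequences around the match are printed for the 7 genes that changed between the days and whose match ends within 30 bases after the start. They are given 5′ to 3′ on the strand of the gene, with CACGTG in capitals.
WDR43: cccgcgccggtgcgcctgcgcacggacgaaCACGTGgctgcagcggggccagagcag
GNL3: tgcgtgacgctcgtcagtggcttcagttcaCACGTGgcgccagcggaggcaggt
DDX21: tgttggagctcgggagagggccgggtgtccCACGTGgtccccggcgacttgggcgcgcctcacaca
UTP20: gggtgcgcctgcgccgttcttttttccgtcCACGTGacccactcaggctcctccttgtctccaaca
UTP4: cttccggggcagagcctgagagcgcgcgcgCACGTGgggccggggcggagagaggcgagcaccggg
FBL: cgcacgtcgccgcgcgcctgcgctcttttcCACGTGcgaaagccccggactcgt
NOP14: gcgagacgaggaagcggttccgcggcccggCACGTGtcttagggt
These windows lie at chr2:28894640-28894696 (plus strand), chr3:52686008-52686061 (plus), chr10:68956586-68956651 (plus), chr12:101280065-101280130 (plus), chr16:69132603-69132668 (plus), chr19:39846350-39846403 (minus) and chr4:2963377-2963421 (minus). The first 5 belong to genes that were lower on day 5, and the last 2 to genes that were higher. MYBBP1A also holds the letters and was higher. By direction of change, the letters were present in 5 of 18 lower genes, 5 of 9 genes with no call and 3 of 4 higher genes that had a promoter. The differences between these shares were not tested. A match is only a run of letters, and binding was not measured in these libraries.

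Values are reads on a gene divided by 1 scaling factor per library, as deposited, and the reads could be recovered as whole numbers for every gene. Between 27470978 and 56689369 reads lay on genes per library. Among the member genes the fewest reads in a library were 128, for PPAN, and the next fewest 509, for RRS1. Day 3 replicate 3, the library with the fewest reads, and day 3 replicate 1 stood farthest from the replicates of their day, with a median absolute log2 difference of 0.213 and 0.174 over genes, against 0.104 to 0.114 in the other 4 libraries. Day 3 replicate 1 gave the lowest day 3 value for 33 of the 37 genes and day 3 replicate 3 the highest for 32. These values include the scaling factor. As a share of the reads on genes, the members together took 0.837%, 0.866% and 0.846% in day 3 replicates 1, 2 and 3. By that share replicate 3 was not the highest, and the part of the scaling factor in the order of the values was not tested. Epithelial keratins and EPCAM were abundant in all libraries, while CDX1, VIL1 and CEACAM5, which mark differentiated intestinal epithelium, were under 10 in every library. The summed value of the 10 epithelial markers went from 38164–56697 to 105857–106399, and 6 of its 7 tested genes were higher on day 5. Of the fibroblast markers COL1A1 was the most abundant (483–566 on day 3, 1092–1156 on day 5), DCN was at 0 in 5 of 6 libraries, and the summed leukocyte and endothelial markers were between 15.6 and 68.3. The part of these shifts in the results below was not tested. In RNA from whole cultures, fewer cells of a type and less RNA per cell cannot be told apart, and a level is relative to all RNA sequenced.

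Most of the genes that changed were lower in the crowded cultures. Of the 37 genes, 19 were lower on day 5, 5 were higher and 13 did not pass the test. These calls come from limma on log2(value + 1), with Benjamini-Hochberg adjustment over all 20129 genes tested and 0.05 as the threshold. Much of the transcriptome differed between the days. Over all genes tested, 27.6% were lower and 29.3% higher, beside 51.4% and 13.5% of the members. The median log2 change was -0.32 for the members and 0.01 for all genes tested. All 3 day 5 libraries lay below all 3 of day 3 for 21 of the 37 members, beside 31.7% of all genes tested. They lay above day 3 for 8 of the 37, beside 33.4% of all genes tested, and the days overlapped for the other 8. Only NOP16, UTP15 and NPM1, 3 of the 37, were called with a fall of at least 2-fold, beside 1530 of all 20129 genes tested. No member was called with such a rise, beside 2059 of all genes tested. Without day 3 replicate 3 there were 17 lower and 7 higher genes, and without day 3 replicate 1 there were 20 and 5. Over all genes tested, those fits gave 5302 lower and 6078 higher, and 5095 lower and 5478 higher. When each library was centred on its median gene, the median of all genes moved to -0.16, the share of higher genes among all calls went from 51.5% to 39.5%, and 23 members were lower and 4 higher.

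**Figure D1:**
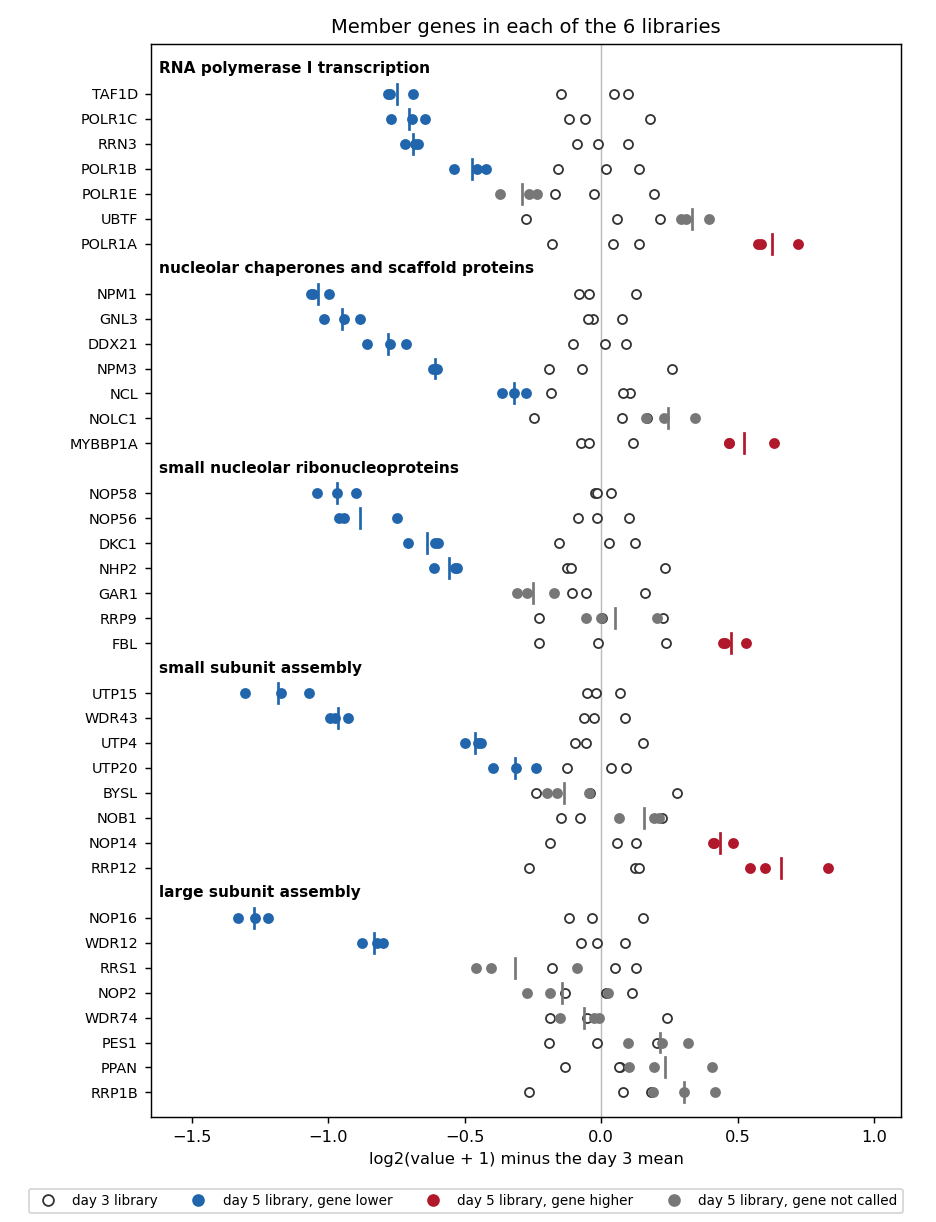
Each row is 1 of the 37 genes, grouped by role, and each circle is 1 library, placed by its log2(value + 1) minus the gene's day 3 mean; open circles are day 3, filled circles day 5 and the short bar the day 5 mean. The 19 lower genes (blue) reach from -0.32 to -1.27 and the 5 higher genes (red) from 0.43 to 0.66.

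The machinery that transcribes the ribosomal DNA split. Of 7 genes, 4 were lower (57.1%), POLR1A was higher (14.3%) and POLR1E and UBTF were not called, with a median log2 change of -0.47. Over all genes tested, 27.6% were lower and 29.3% higher. TAF1D, a subunit of the selectivity factor SL1 that finds the promoter, had values of 13850.2, 13378 and 11694 on day 3 and 7527, 7570.1 and 8027 on day 5. Its days were far apart, and the level fell 1.68-fold (log2 change -0.75 ± 0.093 (SE), adjusted p = 0.00107). RRN3, which links the polymerase to the promoter and is regulated by growth signals, was measured at 4720, 4982 and 5374 on day 3 and 3052, 3152 and 3129 on day 5. The day 5 libraries agreed within a narrow band, all below day 3, at a log2 change of -0.69 ± 0.081 (SE), adjusted p = 0.000858. POLR1C, a subunit that RNA polymerase I shares with RNA polymerase III, read 2483, 2382 and 2929 on day 3 and 1655, 1517 and 1602 on day 5 (log2 change -0.70 ± 0.10 (SE), adjusted p = 0.00204).

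The 2 largest subunits of RNA polymerase I, which together form its active centre, moved in opposite directions. POLR1A, the largest subunit, was at 3330.2, 3888 and 4161 on day 3 and 6223, 5661 and 5618 on day 5. Every day 5 library lay above every day 3 library, and the rise was 1.54-fold (log2 change 0.63 ± 0.11 (SE), adjusted p = 0.00391), a call that was lost when base composition was corrected, as given with the GC content. POLR1B, the second subunit, was at 4433, 5000.4 and 5441 on day 3 and 3608, 3399.7 and 3684 on day 5. Here every day 5 library lay below day 3, with a log2 change of -0.47 ± 0.10 (SE), adjusted p = 0.00863. The remaining genes moved less. POLR1E, a subunit of the polymerase that helps it to engage the promoter, had 2419.7, 2666 and 3112 on day 3 and 2307, 2099.7 and 2265 on day 5, which did not overlap but missed the threshold (log2 change -0.29 ± 0.11 (SE), adjusted p = 0.0725). Without day 3 replicate 1 it was called lower, at -0.37 (adjusted p = 0.0369). UBTF, the factor that coats active ribosomal DNA, had 2486, 3128 and 3493 on day 3 and 3953, 3686 and 3726 on day 5. Its day 5 libraries were all above day 3 but the change of 0.33 ± 0.14 (SE) had an adjusted p of 0.0842. Without day 3 replicate 3, UBTF was called higher at 0.44 (adjusted p = 0.0315), and with GC content and length corrected it turned to -0.13 (adjusted p = 0.337).

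The nucleolar chaperones and scaffold proteins held the most abundant members. Of these 7 genes, 5 were lower (71.4%, beside 27.6% of all genes tested), with a median log2 change of -0.61. NPM1 encodes nucleophosmin, a chaperone of histones and ribosomal proteins and one of the main proteins of the nucleolus. It was measured at 85904, 83716 and 96692 on day 3 and 42619.5, 42454 and 44372 on day 5. The day 5 values were close together at less than the lowest day 3 value by a wide margin, a 2.06-fold fall (log2 change -1.04 ± 0.086 (SE), adjusted p = 0.000326). NPM3, a relative of NPM1, had 3783, 4113 and 5157 on day 3 and 2841, 2812 and 2831 on day 5, with the tightest day 5 group of all members. Its log2 change was -0.61 ± 0.13 (SE), adjusted p = 0.00808. GNL3, or nucleostemin, a nucleolar GTPase of proliferating cells, had 11489, 11341 and 12346 on day 3 and 6094, 5795 and 6351 on day 5. Again the days were well apart (log2 change -0.95 ± 0.08 (SE), adjusted p = 0.000335). DDX21, an RNA helicase that binds RNA polymerase I transcripts and snoRNAs, fell from 18577 ± 1243 to 10800.4 ± 531 (SD, n = 3 each; log2 change -0.78 ± 0.088 (SE), adjusted p = 0.000745).

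The call for nucleolin lay close to the threshold. NCL, which encodes nucleolin, a protein that binds the nascent ribosomal precursor, had values of 40809, 49879 and 49057 on day 3 and 38321, 36056 and 37218 on day 5. The libraries did not overlap, but day 3 replicate 1 lay close to the day 5 values, and the log2 change was -0.32 ± 0.10 (SE), adjusted p = 0.0392. The call was kept in 5 of 14 alternative analyses, edgeR and DESeq2 among them (adjusted p = 0.00202 and 0.000292). It was lost when any library other than day 3 replicate 1 was left out, with log2 changes from -0.34 to -0.27 and adjusted p from 0.0785 to 0.122. MYBBP1A, a nucleolar protein known as a binding partner of MYB, went the other way, with 2315, 2363 and 2639.6 on day 3 and 3779, 3368 and 3365 on day 5. All of its day 5 libraries were above day 3 (log2 change 0.52 ± 0.094 (SE), adjusted p = 0.00435), although the direction turned with the correction for GC content and length. NOLC1, a chaperone of snoRNPs, had 7670, 9583 and 10205 on day 3 and 11540.1, 10175 and 10650 on day 5. Its days overlapped and it was not called (log2 change 0.25 ± 0.13 (SE), adjusted p = 0.154). NOLC1 was called higher with library totals, edgeR and DESeq2 (adjusted p = 0.0446, 0.0282 and 0.0481). It stayed uncalled in the other 11 of 14 alternatives.

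Among the snoRNP proteins, 4 of 7 were lower (57.1%, beside 27.6% of all genes tested) and FBL was higher. SnoRNPs of the box C/D class carry a methyltransferase, fibrillarin (FBL), on a scaffold of NOP56 and NOP58, and those of the box H/ACA class carry the pseudouridine synthase dyskerin (DKC1) with NHP2 and GAR1. NOP58 was measured at 8174, 8205 and 8511 on day 3 and 4454, 4034 and 4240.3 on day 5, and its 3 day 3 libraries were within a narrow band. The fall was 1.96-fold (log2 change -0.97 ± 0.076 (SE), adjusted p = 0.000287). NOP56 had 8879, 9316 and 10105 on day 3 and 5605, 4843 and 4905 on day 5, with no overlap (log2 change -0.88 ± 0.097 (SE), adjusted p = 0.000703). FBL had 4673, 5424 and 6444 on day 3 and 7449, 7484 and 7906 on day 5. Its days did not overlap, and day 5 stood at 1.38 times the day 3 mean (log2 change 0.48 ± 0.13 (SE), adjusted p = 0.0218). The call for FBL was kept in 8 of 14 alternative analyses, and it was lost without day 3 replicate 2 or without any 1 of the day 5 libraries, at log2 changes of 0.45 to 0.49 and adjusted p of 0.0541 to 0.067. The catalytic subunit and its scaffold thus had calls in opposite directions.

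In the H/ACA class the enzyme and NHP2 fell together. DKC1 had 5102, 5798 and 6193 on day 3 and 3750.2, 3482 and 3722 on day 5 (log2 change -0.64 ± 0.099 (SE), adjusted p = 0.00239). NHP2 had 2940.4, 2972 and 3765 on day 3 and 2209, 2099 and 2221 on day 5, the day 5 values all being below day 3 (log2 change -0.56 ± 0.12 (SE), adjusted p = 0.00828). GAR1 had 1158, 1396 and 1201 on day 3 and 1006, 1033 and 1108 on day 5, with no overlap and a smaller change that was not called (log2 change -0.25 ± 0.10 (SE), adjusted p = 0.077). GAR1 was called lower by edgeR, DESeq2 and median centring (log2 changes -0.27, -0.27 and -0.42; adjusted p = 0.00995, 0.0143 and 0.014) but higher with GC content and length corrected (0.30, adjusted p = 0.0434). RRP9, a protein of the U3 snoRNP that guides the first cleavages, had 1147, 1345 and 1571 on day 3 and 1549.7, 1292 and 1343 on day 5. The day 5 libraries lay within the day 3 range, and the log2 change was 0.05 ± 0.14 (SE), adjusted p = 0.781.

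Genes of the small subunit pathway held the widest spread. Of 8 genes, 4 were lower and 2 higher (50% and 25%, beside 27.6% and 29.3% of all genes tested). Their median log2 change was -0.23. UTP15, WDR43 and UTP4 belong to the UTP-A complex, which binds the precursor while it is being transcribed. UTP15 had 3277, 3352 and 3562 on day 3 and 1617, 1374 and 1505 on day 5, a fall of 2.27-fold (log2 change -1.18 ± 0.092 (SE), adjusted p = 0.00028). WDR43 had 10034, 10294 and 11144 on day 3 and 5330.3, 5270 and 5505 on day 5, and both groups were tight and far apart (log2 change -0.97 ± 0.078 (SE), adjusted p = 0.0003). UTP4 fell less, with 5289.8, 5445 and 6293 on day 3 and 4139.5, 4009 and 4169.9 on day 5 (log2 change -0.46 ± 0.093 (SE), adjusted p = 0.00679). All 3 genes of this complex were lower in every day 5 library, yet by different amounts. UTP20, a very long scaffold protein of the small subunit processome, had 3810.4, 4265 and 4427 on day 3 and 3522, 3158 and 3351 on day 5. Its log2 change of -0.32 ± 0.093 (SE) passed the test (adjusted p = 0.0286), but the call was kept in 8 of 14 alternatives. Leaving out day 3 replicate 2, day 3 replicate 3, day 5 replicate 2 or day 5 replicate 3 ended it, at -0.32 to -0.27 and adjusted p of 0.0594 to 0.0982.

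The higher genes of this group were RRP12 and NOP14. RRP12, which takes part in subunit assembly and export, had 1051, 1372 and 1389 on day 3 and 2245, 1912 and 1841 on day 5. The day 5 libraries were all above day 3, and the rise of 1.57-fold was the largest among the members (log2 change 0.66 ± 0.15 (SE), adjusted p = 0.00973). With the same correction RRP12 lost its call. NOP14, a component of the small subunit processome, had 2355, 2793 and 2932 on day 3 and 3746, 3570.2 and 3559 on day 5. It did not overlap either (log2 change 0.43 ± 0.10 (SE), adjusted p = 0.0138). BYSL and NOB1 were not called. BYSL, or bystin, had 999, 1147 and 1430.3 on day 3 and 1143, 1029 and 1054 on day 5 and NOB1, the nuclease that makes the mature end of 18S rRNA, had 2934, 3074 and 3791 on day 3 and 3758, 3394 and 3709 on day 5. The days overlapped for both, and their log2 changes were -0.13 ± 0.14 (SE) and 0.16 ± 0.12 (SE) (adjusted p = 0.46 and 0.308). NOB1 was called higher without day 3 replicate 3, at 0.27 (adjusted p = 0.0434).

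Of the 8 large subunit factors measured, 2 were lower (25.0%, near the 27.6% of all genes tested), none was higher and 6 were not called, and the median log2 change was -0.10. NOP16 had 2503, 2654 and 3021 on day 3 and 1127, 1081 and 1167 on day 5. This was the deepest fall of all members, 2.42-fold (log2 change -1.27 ± 0.097 (SE), adjusted p = 0.000268). WDR12 and PES1 encode partners in the PeBoW complex, which BOP1 completes. WDR12 had 5678, 5912 and 6355 on day 3 and 3432, 3253 and 3379.8 on day 5 and fell (log2 change -0.83 ± 0.079 (SE), adjusted p = 0.000456). PES1 had 3671, 4137 and 4828 on day 3 and 5218, 4487 and 4889 on day 5, with overlap and no call (log2 change 0.21 ± 0.13 (SE), adjusted p = 0.194). PES1 was called higher with library totals and edgeR (adjusted p = 0.0456 and 0.0424). With GC content and length corrected it was at -0.21 and not called (adjusted p = 0.0959). Partners in a complex thus differed in their calls, as for the polymerase subunits.

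The other 5 large subunit genes stayed under the threshold. RRS1, needed to bring the 5S particle into the subunit, had 641, 792 and 751 on day 3 and 682, 549 and 527 on day 5. Day 5 replicate 1 lay within the day 3 range, and the log2 change was -0.32 ± 0.14 (SE), adjusted p = 0.096; without that library RRS1 was called lower at -0.43 (adjusted p = 0.0407). NOP2, a methyltransferase of 28S rRNA, had a mean of 3052 ± 260.4 on day 3 and 2765 ± 299 on day 5 (SD, n = 3 each), a log2 change of -0.14 ± 0.11 (SE). WDR74 was at 1948 ± 302 and 1853 ± 97.4 (log2 change -0.06 ± 0.13 (SE)). The days overlapped for NOP2 and WDR74 (adjusted p = 0.32 and 0.7). RRP1B, a nucleolar regulator, had 2781, 3529 and 3795 on day 3 and 4457, 3813 and 4121 on day 5, all day 5 values being above day 3 (log2 change 0.30 ± 0.14 (SE), adjusted p = 0.111). RRP1B was called higher with library totals, edgeR and DESeq2 (adjusted p = 0.0333, 0.00982 and 0.0181). It stayed uncalled in the other 11 of 14 alternatives. PPAN had the lowest values of all members, 158, 182 and 181 on day 3 and 229.9, 198 and 186 on day 5 (log2 change 0.23 ± 0.11 (SE), adjusted p = 0.125). PPAN shares its strand with P2RY11 and with a readthrough gene of both, so its reads could be split between them and its value is uncertain.

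Levels were compared between genes per kilobase of exon. NPM1 stood first on both days, with 10681 on day 3 and 5192 on day 5, and NCL second, with 5223 and 4171. NPM3 had rank 3 on day 3 (4528) and rank 4 on day 5 (2943). FBL moved from rank 5 (2579) to rank 3 (3561). At the low end PPAN (60.2 and 70.9), RRP12 (149 and 234) and POLR1A were among the 5 lowest members on both days. POLR1A had 193 on day 3 and 296 on day 5, and POLR1B 551 and 396, so the larger subunit stayed below the smaller one on this scale. The order of neighbours depends on the length used, since many annotated exons may not be used in these cells. Averaged over the libraries of both days, the median over members was 873 per kilobase of all exons and 1095 per kilobase of the longest transcript.

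Together the 37 genes took 0.850% ± 0.0149 of the reads on genes on day 3 and 0.615% ± 0.0192 on day 5 (SD, n = 3 each), a ratio of 0.724. NPM1 alone took 0.247% ± 0.00701 and 0.126% ± 0.00138. Without NPM1 the share still went from 0.603% ± 0.0219 to 0.489% ± 0.0193. Mitochondrial genes took 6.99% ± 0.237 of the reads on day 3 and 5.79% ± 0.332 on day 5, and the 10 genes with the most reads 12.3% ± 0.555 and 8.19% ± 0.0745.

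**Figure D2:**
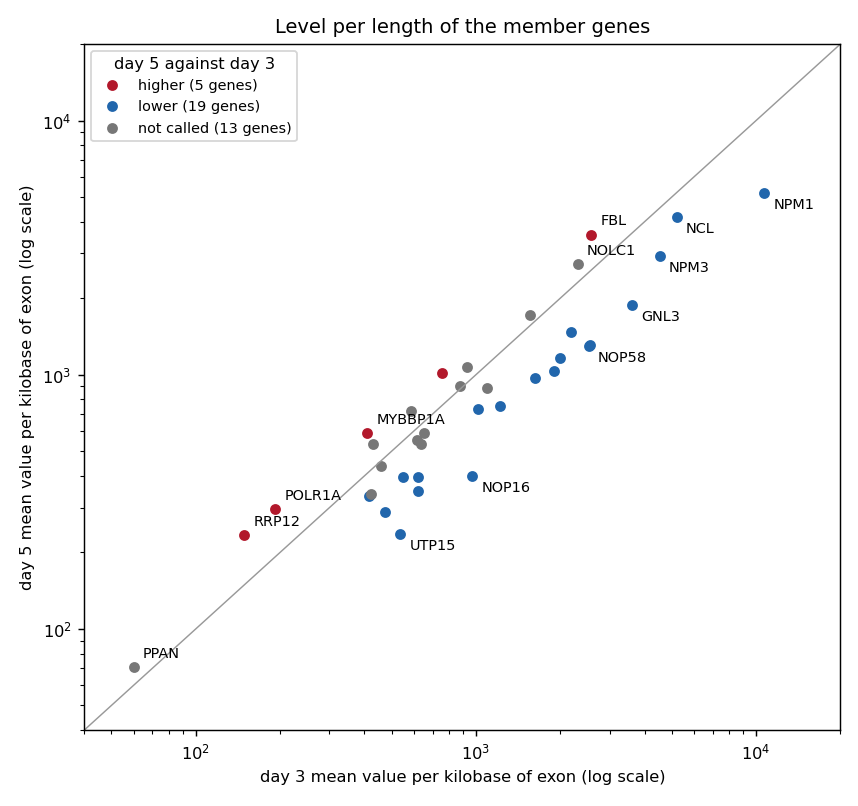
Mean value per kilobase of exon on day 3 (x axis) and day 5 (y axis), both on log scales, for the 37 genes, coloured by call; the line marks equal levels. NPM1 lies at the top on both days, and the lower genes lie below the line from UTP20 (415 on day 3) up to NPM1 (10681); the 4 members with the lowest day 3 levels were higher or not called.

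Ratios of genes that act together were formed within each library, where a scaling factor cancels. The pairs were chosen after the values were seen, so the ratios are descriptions and were not tested. POLR1A over POLR1B was 0.751, 0.777 and 0.765 on day 3 and 1.72, 1.67 and 1.52 on day 5, a 2.14-fold difference of the means. FBL over NOP56 was 0.526, 0.582 and 0.638 on day 3 and 1.33, 1.55 and 1.61 on day 5, 2.57-fold higher. In both pairs the day 5 ratios were far outside the day 3 range. PES1 over WDR12 went from a mean of 0.702 ± 0.0567 to 1.45 ± 0.0704 (SD, n = 3 each), and UBTF over RRN3 from 0.602 ± 0.0657 to 1.22 ± 0.0674. UTP4 over UTP15 went from 1.67 ± 0.085 to 2.75 ± 0.18. The ratios of both days overlapped for NOP58 over NOP56 and for NHP2 over DKC1. NOP58 over NOP56 was 0.881 ± 0.0391 on day 3 and 0.831 ± 0.0349 on day 5, and NHP2 over DKC1 was 0.566 ± 0.0485 and 0.596 ± 0.00681. GAR1 over DKC1 went from 0.221 ± 0.0241 to 0.288 ± 0.0167, and NPM3 over NPM1 from 0.0488 ± 0.00465 to 0.0656 ± 0.00155. Neither of these pairs overlapped between the days. A correction that differs between genes does not cancel. With GC content and length corrected, the fold change of the ratio was 1.27 for UBTF over RRN3 in place of 2.03, 1.51 for POLR1A over POLR1B in place of 2.14, and 1.59 for PES1 over WDR12 in place of 2.07. It was 2.82 for FBL over NOP56, 1.99 for GAR1 over DKC1 and 1.40 for NOP58 over NOP56.

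**Figure D3:**
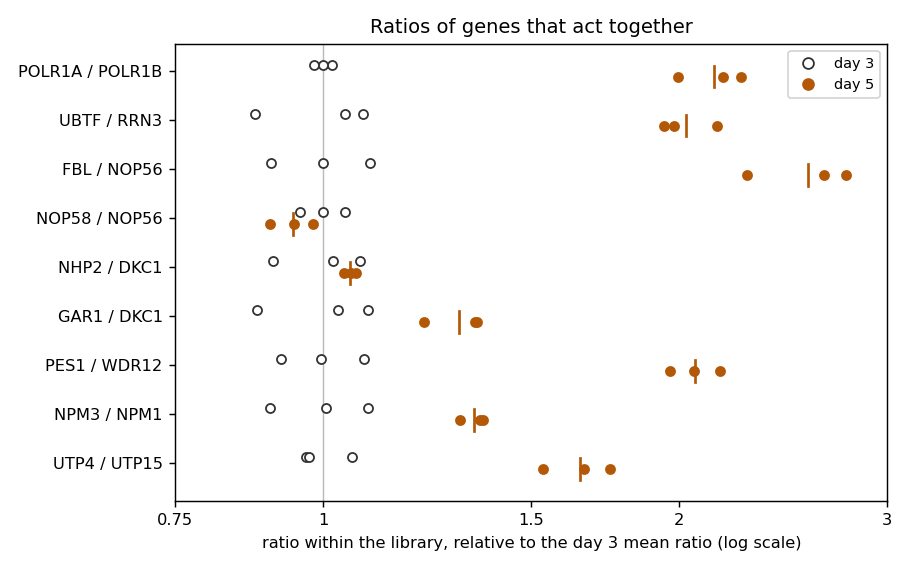
Ratio of the values of 2 genes within each library, divided by the mean day 3 ratio (log scale), with open circles for day 3, filled circles for day 5 and a bar for the day 5 mean. The ratios of POLR1A to POLR1B and of FBL to NOP56 rose 2.14-fold and 2.57-fold, while NOP58 to NOP56 and NHP2 to DKC1 overlapped between the days.

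Several members are hosts: their introns carry small nucleolar RNAs, the guides that snoRNPs use. The annotation places 34 such RNAs on the same strand within 9 of the members, and 17 of them, in 7 hosts, had values. After the filter on low values 13 were tested, in GNL3, NCL, NOP58, TAF1D and WDR43. All 13 had a log2 change below 0, which the filter fixed in advance for SNORD82, and 9 were lower (background 27.6%). SNORA75, in NCL, had 139, 106 and 140.3 on day 3 and 54.2, 54.7 and 53.8 on day 5, the day 5 libraries agreeing within 1 unit (log2 change -1.21 ± 0.13 (SE), adjusted p = 0.000601). The log2 change of its host was -0.32, and the difference between both was not tested. SNORD20, also in NCL, had 104, 92.1 and 138 on day 3 and 33.6, 57.9 and 64.2 on day 5 (log2 change -1.11 ± 0.28 (SE), adjusted p = 0.0157). In NOP58, SNORD11 had 78.1, 76.7 and 70.9 on day 3 and 41.2, 41.8 and 35.2 on day 5 (log2 change -0.92 ± 0.098 (SE), adjusted p = 0.000638). SNORD11B and SNORD70 in the same host changed by -1.01 and -0.66 on the log2 scale (adjusted p = 0.0236 and 0.0099), beside -0.97 for NOP58 itself.

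In GNL3, SNORD19 and SNORD69 were lower (log2 changes -0.86 and -0.79; adjusted p = 0.00168 and 0.0428), and SNORD19C overlapped between the days (log2 change -0.62). SNORD92 in WDR43 was lower (log2 change -0.77, adjusted p = 0.0281), while SNORD53 and SNORD53B overlapped (log2 changes -0.47 and -0.41). SNORD6 in TAF1D was lower at -0.64 ± 0.22 (SE), adjusted p = 0.0467. SNORD82 in NCL passed the filter only through its day 3 libraries and was not called (log2 change -0.79). These RNAs are shorter than most sequenced fragments and had 3 to 171 reads per library. Reads from unspliced host RNA may fall on them, and host and guide reads were not separated here. The 9 members that carry small nucleolar RNAs had a median log2 change of -0.75, with 8 lower and none higher, against -0.20, 11 lower and 5 higher among the other 28; all genes tested had 27.6% lower and 29.3% higher. The difference between hosts and the others was not tested. The 5 hosts with tested RNAs had GC contents from 36.5% (TAF1D) to 42.8% (NCL), and the hosts NOP56 and PPAN 50.9% and 61.9%. Among the members the change also followed GC content, as given below, and hosting and GC content were not separated.

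Processed copies of NPM1 are scattered over the genome, and reads can be shared with them. Of 45 NPM1 pseudogenes with values, 24 were tested and 21 were lower (background 27.6%). The filter on low values could be passed through day 3 alone, as for NPM1P22, and so favoured falls among the rarest copies. The summed day 3 mean of all 45 was 4079, or 4.59% of NPM1, so these copies were small beside the gene. RRN3 has a larger share of its signal in copies: 4 pseudogenes summed to 593 on day 3, 11.8% of RRN3. Of the 3 tested, 2 were lower (background 27.6%). RRN3P3 was not called, with a log2 change of 0.0097 ± 0.12 (SE, adjusted p = 0.951). How reads were shared with the copies was not tested, so values of NPM1 and RRN3 are uncertain by an unknown amount. UTP4 also overlaps SNTB2 on its own strand. Pseudogenes of NOP56, NHP2, NCL and PES1 summed to at most 1.16% of their parent.

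The rest of the pathway was examined in lists of its other genes, drawn up with earlier results of these data known, so their counts are not independent evidence. Of 164 other ribosome biogenesis genes tested, 101 were lower and 23 higher (61.6% and 14.0%, beside 27.6% and 29.3% of all genes tested), and 40 were not called. Their median log2 change was -0.63. Among 16 other factors of RNA polymerase I and its promoters, 11 were lower (68.8%) and TCOF1 alone was higher (6.25%). POLR2K, a subunit common to all 3 nuclear RNA polymerases, had the largest fall, from 3635 ± 328 to 1134 ± 11.7 (SD, n = 3 each; log2 change -1.68 ± 0.09 (SE), adjusted p = 0.000167). NOL11, which supports both transcription and processing of the precursor, followed (log2 change -1.26 ± 0.088 (SE), adjusted p = 0.000232). TCOF1, or treacle, which binds UBTF, rose (log2 change 0.67 ± 0.12 (SE), adjusted p = 0.0043).

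Other small subunit factors had 26 lower and 5 higher genes of 44 (59.1% and 11.4%, beside 27.6% and 29.3% of all genes tested). LTV1 and EMG1, which act in small subunit assembly, fell most (log2 changes -1.43 and -1.25; adjusted p = 0.000205 and 0.000368), and NAT10, an RNA acetyltransferase, and DHX37, a helicase, rose most (log2 changes 0.85 and 0.55; adjusted p = 0.00225 and 0.00808). Other large subunit factors had 30 lower and 8 higher of 50. PAK1IP1 and BRIX1 fell most (log2 changes -1.54 and -1.40; adjusted p = 0.000222 and 0.000185), while DDX54 and NOC2L rose most (log2 changes 0.88 and 0.87; adjusted p = 0.00566 and 0.00386). The share of lower genes was 60.0% in this list, 25.0% among the 8 large subunit members and 27.6% among all genes tested. The difference between both shares was not tested.

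Other snoRNP and related genes had 14 lower and 1 higher of 18 (77.8% and 5.56%, beside 27.6% and 29.3% of all genes tested). POP5 and RPP40, protein subunits of RNase P and RNase MRP, fell most (log2 changes -1.59 and -1.36; adjusted p = 0.000313 and 0.000428), and RUVBL2, an ATPase that assembles box C/D snoRNPs, rose (log2 change 0.73 ± 0.14 (SE), adjusted p = 0.00603). The RNA exosome, which trims the precursor, had 11 lower and 1 higher gene of 14 (78.6% and 7.14%). EXOSC9 and EXOSC1 fell most (log2 changes -1.48 and -1.23; adjusted p = 0.000156 and 0.000336), and EXOSC6 rose (log2 change 0.51 ± 0.12 (SE), adjusted p = 0.0125). RNA polymerase III, which makes 5S rRNA, had 9 lower and 7 higher genes of 22 (40.9% and 31.8%, beside 27.6% and 29.3% of all genes tested) and a median log2 change of -0.15. GTF3C6 and POLR3K fell most (log2 changes -1.24 and -1.23; adjusted p = 0.00034 and 0.000686). GTF3C1, the largest subunit of TFIIIC, and BRF1, a subunit of TFIIIB, rose most (log2 changes 1.05 and 0.59; adjusted p = 0.0004 and 0.00162). The ribosomal RNA itself was removed before sequencing, and none of 20 rRNA transcripts was analysed here, so the output of RNA polymerase I was not measured.

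**Figure D4:**
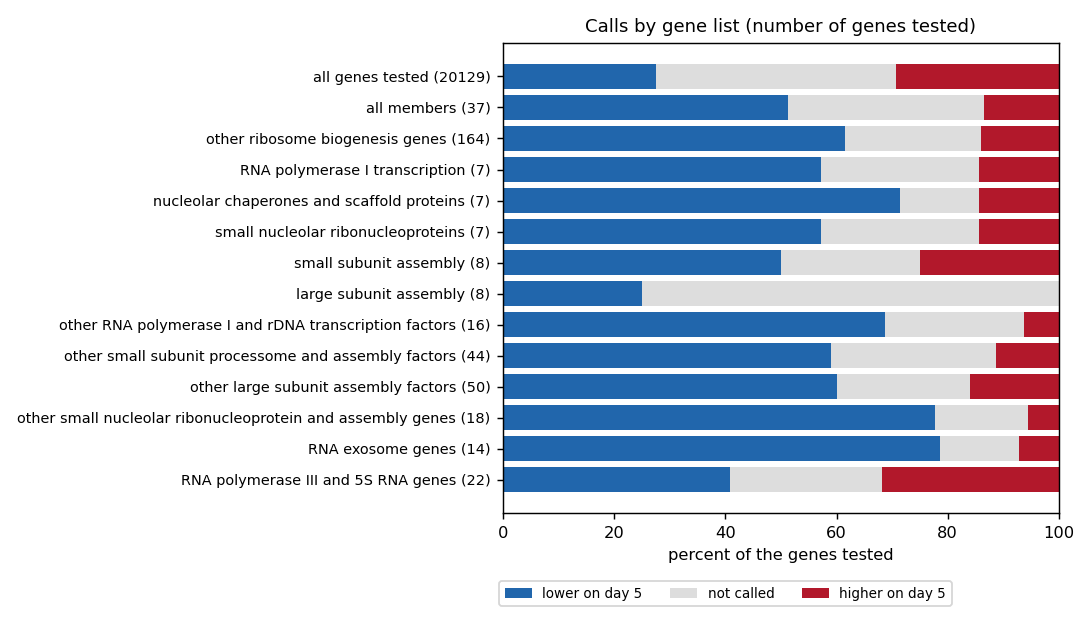
Share of the genes tested that were lower (blue), not called (grey) or higher (red) on day 5, for all genes, for the members together and by role, and for 6 lists of other pathway genes, with the number of genes tested in brackets. Lower genes make up 27.6% of all genes tested, 51.4% of the members and 61.6% of the other pathway genes.

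The direction of change followed base composition. Across 13132 tested protein-coding genes, the log2 change rose with the GC content of the longest transcript (Spearman rho = 0.54), and across the 37 members rho was 0.72. Genes are not independent replicates, and all of these points share the same 6 libraries, so the values are descriptions. In the sixth of protein-coding genes with the lowest GC content (29.2% to 39.8%) the median log2 change was -0.42, and in the sixth with the highest (59.5% to 76.0%) it was 0.68. The 19 lower members had a median GC content of 42.3% and the 5 higher members 54.3%. The 13 genes that were not called had 55.4%. NOP56, NPM3 and NHP2 were lower despite GC contents of 50.9%, 55.8% and 57.1%.

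With GC content and transcript length corrected in each library, a step chosen after the data were seen, 21 members were lower and 3 higher. Over all 19288 genes in that fit, 5019 were lower and 4705 higher. The falls of NOP16 (-0.85), UTP15 (-1.03), NPM1 (-0.75), NOP58 (-0.50) and NOP56 (-0.99) kept their calls. The rises did not all do so. The log2 change of POLR1A became 0.02 (adjusted p = 0.861), that of RRP12 became 0.04 (adjusted p = 0.785), and MYBBP1A turned to -0.18 (adjusted p = 0.0565). FBL stayed higher at 0.51 (adjusted p = 0.00803) and NOP14 at 0.25 (adjusted p = 0.046), and GAR1 turned from -0.25 to 0.30 (adjusted p = 0.0434). NCL lost its call at -0.20 (adjusted p = 0.12), while RRS1, POLR1E and NOP2 were called lower.

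**Figure D5:**
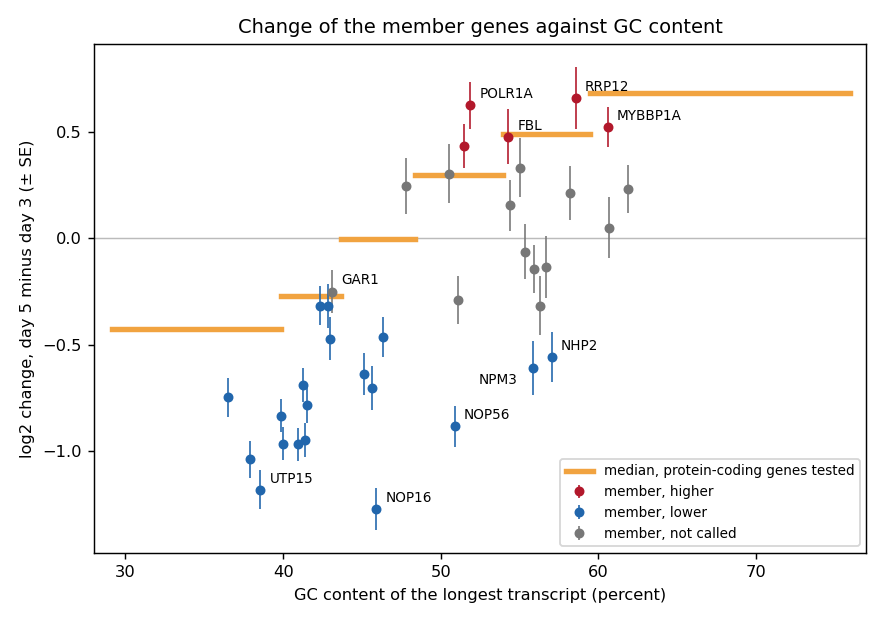
Log2 change between day 3 and day 5 (± SE) of the 37 genes against the GC content of the longest transcript in percent; orange lines give the median change of protein-coding genes tested, in 6 groups of GC content. The medians climb from -0.42 to 0.68, and 31 of the 37 members lie below the median of their group.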

How the data were processed

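HCT116 cells were measured on day 3 and day 5, 3 libraries each; replicates and days came from the labels. The libraries were depleted of rRNA and carried molecular identifiers, per the study's methods. The authors mapped paired-end reads strand-specifically to Ensembl genes of hg38 in CLC Genomics Workbench; TMM is named as the normalization, and the submitters' processing notes name FastQC 0.11.8 and MultiQC 1.7. The deposited values are a normalized signal, reads divided by 1 factor per library; 100% were whole multiples of 1 read (tolerance 0.001 reads), so reads were recovered. The authors' own fold changes and p-values in the deposited table were not used, nor were the miRNA tables.

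limma 3.58.1 (R 4.3.3) was fitted to log2(value + 1), which understates changes of low genes, for the 20129 genes that reached 10 in 3 or more of the 6 libraries. P-values were adjusted by Benjamini-Hochberg; the threshold was 0.05, and all members passed the filter. Precision rests on 3 libraries per day and, for few reads, on counting. Alternatives were library totals, median centring, a pseudocount of 0.1, no filter, the replicate number as a block, leaving out each library, a 2-fold minimum, edgeR 4.0.16 and DESeq2 1.42.0 on recovered reads, and, chosen after seeing the data, a correction for GC content and length (19288 genes). Over all genes edgeR called 6035 lower and 6245 higher, and among the members 22 and 9. DESeq2 called 5608 lower and 5922 higher over all genes, and among the members 22 and 8. The limma fit was also run on simulated data in which far fewer genes changed than were called here, and its outcome is not given. Loci, lengths and GC content came from GENCODE 44, by identifier. Named were all members, at most 2 falls and 2 rises per pathway list, and RNAs and pseudogenes of members. Members and lists were chosen with earlier results of these data known. Tables used Python 3.11.15, pandas 2.3.3 and numpy 2.4.6, and figures matplotlib 3.10.9.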

Additional observations from a re-analysis of the deposited data

How the results depend on the processing

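Of the 37 members, 17 kept their direction and their side of the threshold under the 14 alternatives that refit the data, and all 17 were lower on day 5; they include NOP16, UTP15, NPM1, NOP58 and NOP56. Each higher gene lost its call under at least 1 alternative. Over all genes, 11450 were called, 3589 with a 2-fold minimum and 9811 to 11380 without 1 library. Leaving out 1 library gave 17 to 20 lower and 4 to 7 higher members, and 95 to 105 lower and 18 to 30 higher other pathway genes. Over all 20129 genes tested, the same fits gave 4744 to 5302 lower and 5027 to 6078 higher. The higher members were 9 with library totals, 3 without the filter, 9 by edgeR, 8 by DESeq2 and 3 after GC correction, beside 5. Over all genes, the higher were 6395, 4744 (of 38055), 6245, 5922 and 4705 (of 19288) in that order, beside 5900. With a 2-fold minimum, which is outside those 14, 3 members were lower and 0 higher. Over all 20129 genes tested, 1530 were lower and 2059 higher with that minimum. The higher other pathway genes were 15 without the filter and 5 after GC correction, beside 23. With mitochondrial and the 10 most read genes left out, the ratio of the members' read shares was 0.685 in place of 0.724, and the median level per kilobase was 1095 by the longest transcript in place of 873.

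The labels do not say whether the same replicate number pairs the samples. The correlations of deviations were -0.011, 0.034 and 0.023 for the 3 pairs, and not every sample correlated best with its own number. With 3 libraries per day this check cannot exclude a pairing. With the replicate block 17 members were lower and 5 higher, 10533 genes were called, and NCL and UTP20 lost their calls (adjusted p = 0.0869 and 0.0777). Directions reversed after GC correction for GAR1 (0.30), RRP9 (-0.27), PES1 (-0.21), PPAN (-0.25), UBTF (-0.13) and MYBBP1A (-0.18). With library totals WDR74 was at 0.0047, and with median centring RRP9 was at -0.12 and NOB1 at -0.014. Leaving out 1 library, BYSL was at 0.0048 and WDR74 at 0.058 without day 3 replicate 3, and RRP9 at -0.064 without day 3 replicate 1 and -0.028 without day 5 replicate 1; over all such fits WDR74 went from -0.16 to 0.058 and RRP9 from -0.064 to 0.16. Only MYBBP1A among these was called in the reported analysis, and the causes were not tested. Genes with few reads, such as PPAN and the intronic RNAs, are limited by depth.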
